A study of Rattus norvegicus with 24 samples.

Results

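Genes that encode 9 transcription factors of the lung epithelial lineage, Nkx2-1, Foxa1, Foxa2, Gata6, Etv5, Elf3, Ehf, Klf5 and Spdef, were followed in whole lungs of rats given silica or saline. They were chosen by gene name from the deposited expression table, each name matched 1 of its 32489 gene IDs, and 9 of 9 passed the filter on low values that left 20856 genes for testing. The choice was made with earlier results from the same libraries known, including the day 14 change of Nkx2-1, so the changes of the 9 genes between groups are given as descriptions, without p-values, and nothing is read from their number. RNA was measured by sequencing 24 libraries, 1 for each male Wistar rat, 5 to 6 weeks old and weighing 170 to 190 g by the labels. The groups were silica at day 14, saline at day 14, silica at day 28 and saline at day 28, with 6 rats in each. Silica rats had received silica at 200 mg/mL into the trachea and saline rats normal saline by the same route; the instilled volume is not given in the sources used here, and no group was left without an instillation. Inhaled silica dust inflames and scars the lung (silicosis), and by its title the series concerns how this fibrosis progresses.

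These factors act in the airway or alveolar lining, and not all in the same cells of it. Whole-lung libraries do not show which cells the RNA of a gene came from. NKX2-1 is the homeodomain factor that marks the lung epithelium from its first specification and activates surfactant and secretory protein genes; FOXA1 and FOXA2 are forkhead factors that open chromatin at endoderm genes, and GATA6 is a zinc finger factor that works with NKX2-1 on surfactant promoters. ETV5 is an ETS factor induced by FGF signalling that maintains alveolar type 2 cells in the mouse. ELF3, EHF and SPDEF are epithelium-specific ETS factors, of which SPDEF drives goblet cell differentiation, and KLF5 is a Krüppel-like factor of lung maturation and alveolar cell fate in the mouse. In whole lung, fewer cells of a type and less RNA per cell cannot be told apart.

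The promoter windows of the 3 genes called higher with silica at day 14 are shown because those genes carry the difference described below. They come from RefSeq on build GRCr8, which is not the build of the expression files (Rnor_6.0, also named rn6), and they run from 250 bases before to 50 bases after an annotated start, 5′ to 3′ on the strand of the gene. RefSeq windows matched 7 of the 9 genes; Foxa1 and Ehf were not matched. Capitals mark exact matches, on either strand, to any of 7 motifs. These were TGTTTAC for forkhead factors, TCAAG and the longer CACTCAAG for NKX2-1, AGATAA for zinc finger factors of the GATA6 kind, CCGGAAG for ETS factors, GGGCGG as the GC box and TATAAA as the TATA box. CACTCAAG holds TCAAG, so each such match counts under both.
Nkx2-1: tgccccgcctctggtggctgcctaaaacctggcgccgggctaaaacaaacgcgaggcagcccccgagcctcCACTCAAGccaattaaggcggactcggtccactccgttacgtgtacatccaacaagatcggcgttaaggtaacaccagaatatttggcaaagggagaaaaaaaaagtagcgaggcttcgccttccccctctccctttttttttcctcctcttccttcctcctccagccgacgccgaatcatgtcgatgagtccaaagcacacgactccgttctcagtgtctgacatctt
Foxa2: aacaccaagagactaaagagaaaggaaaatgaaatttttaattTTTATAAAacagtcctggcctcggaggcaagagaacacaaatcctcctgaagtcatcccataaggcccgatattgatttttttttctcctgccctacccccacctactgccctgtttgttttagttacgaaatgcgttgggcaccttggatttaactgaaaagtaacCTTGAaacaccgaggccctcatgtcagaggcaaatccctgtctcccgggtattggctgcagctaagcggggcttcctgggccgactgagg
Gata6: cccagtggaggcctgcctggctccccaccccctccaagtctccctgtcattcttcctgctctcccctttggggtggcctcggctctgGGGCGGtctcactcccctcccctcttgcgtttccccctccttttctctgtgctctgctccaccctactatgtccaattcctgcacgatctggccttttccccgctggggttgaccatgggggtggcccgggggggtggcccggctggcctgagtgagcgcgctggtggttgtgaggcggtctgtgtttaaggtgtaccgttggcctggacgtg
The Nkx2-1 window is at chr6:79734818-79735117 on the minus strand, and lies inside the annotated gene, at the start of a downstream transcript. The Foxa2 window is at chr3:155927459-155927758 on the minus strand and the Gata6 window at chr18:2460659-2460958 on the plus strand. Nkx2-1 held 1 match to CACTCAAG, which 1.18% of the 33469 promoter windows of the rat also hold. Foxa2 held 1 match to TCAAG (41.0% of windows) and 2 overlapping matches to TATAAA (14.2%), and Gata6 held 1 GC box (33.1%). TGTTTAC (3.78% of windows), AGATAA (11.6%) and CCGGAAG (8.75%) had no match in these 3 windows. The GC content was 54.0% in the Nkx2-1 window, 46.7% in that of Foxa2 and 64.7% in that of Gata6, against a median of 51.7% over all windows, with 20, 8 and 12 CpG sites against a median of 7. A match is a string of letters and not a measured binding site.

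Library depth, as whole reads recovered from the steps of the FPKM values, ran from 55.06 to 84.6 M (mega) a library, so that the 9 genes had between 292 (Spdef) and 18298 (Nkx2-1) reads in a library. Alveolar markers were high in all 24 libraries: the lowest value of the type 2 cell gene Sftpc was 6250 FPKM and that of the type 1 cell gene Ager 525 FPKM (FPKM, fragments per kilobase of gene, scaled to library size, as deposited by the authors). Silica day 28 replicate 1 stood apart, with the stratified epithelial keratin genes Krt4 at 1063 FPKM and Krt13 at 1127 FPKM, where no other library exceeded 0.998 and 0.751. It also had the basal cell genes Krt5 at 298 and Tp63 at 15.4 FPKM. Heart muscle Myh6 was 114 FPKM in that library and 143 FPKM in saline day 14 replicate 5. NKX2-1 is also a thyroid factor. Of a list of 10 thyroid genes, 4 passed the filter on low values, and 0 of them were called between silica and saline at either day. Over all genes tested, 4.37% were called at day 14 and 13.8% at day 28, in either direction. The summed level of the list ran from 5.30 to 7.66 FPKM in silica and from 5.22 to 9.67 in saline at day 14, and from 8.82 to 14.4 in silica and from 8.62 to 13.6 in saline at day 28. The thyroglobulin gene Tg, which defines thyroid tissue, was at no more than 0.636 FPKM, whereas Tshr reached 5.18, Slc26a4 8.30 and Calca, the calcitonin gene, 8.14 FPKM. Between the saline days 1 of the 4 tested genes of this list was called, Calca, higher at day 28 (1.31, limma adjusted p = 0.00739). In that comparison 14.1% of all genes were called higher and 25.2% in either direction. The part of this list in the results was not tested. Reads on mitochondrial genes made up 2.66% ± 0.686 (SD, n = 6) in silica and 5.29% ± 2.14 in saline at day 28 (exact permutation p = 0.00649), with the highest shares in saline day 28 replicates 1, 2 and 6.

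Nkx2-1 had the highest level of the 9 genes and Spdef the lowest in all 4 groups. FPKM is a level per length, so the genes are set beside each other. The order depends on the gene lengths used, and RefSeq noncoding genes over Nkx2-1 and Foxa2 may share their reads. Averaged over the 24 libraries, Nkx2-1 was at 69.4 FPKM, above 94.6% of the genes tested. Klf5 followed at 30.1, Etv5 at 22.6, Elf3 at 17.6, Ehf at 15.1, Foxa2 at 14.1, Gata6 at 10.1, Foxa1 at 9.68 and Spdef at 5.04 FPKM. Nkx2-1 exceeded Klf5 in 6 of 6 libraries of each group, and the ranges of that pair were separate in every group except saline at day 14. Gata6 and Spdef were also separate in saline at day 14; every other pair of neighbours in the order overlapped in every group. Saline at day 14 placed Foxa2 below Ehf in 6 of 6 libraries, whereas Foxa2 exceeded Ehf in 5 of 6 silica libraries at day 28. The coefficient of variation of Foxa1 between rats was 30.1% to 46.9% in the 4 groups, the highest of the 9 in each group except saline at day 14, where Klf5 had 41.0%. Foxa2 in saline at day 28 varied least, at 3.22%.

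**Figure D1:**
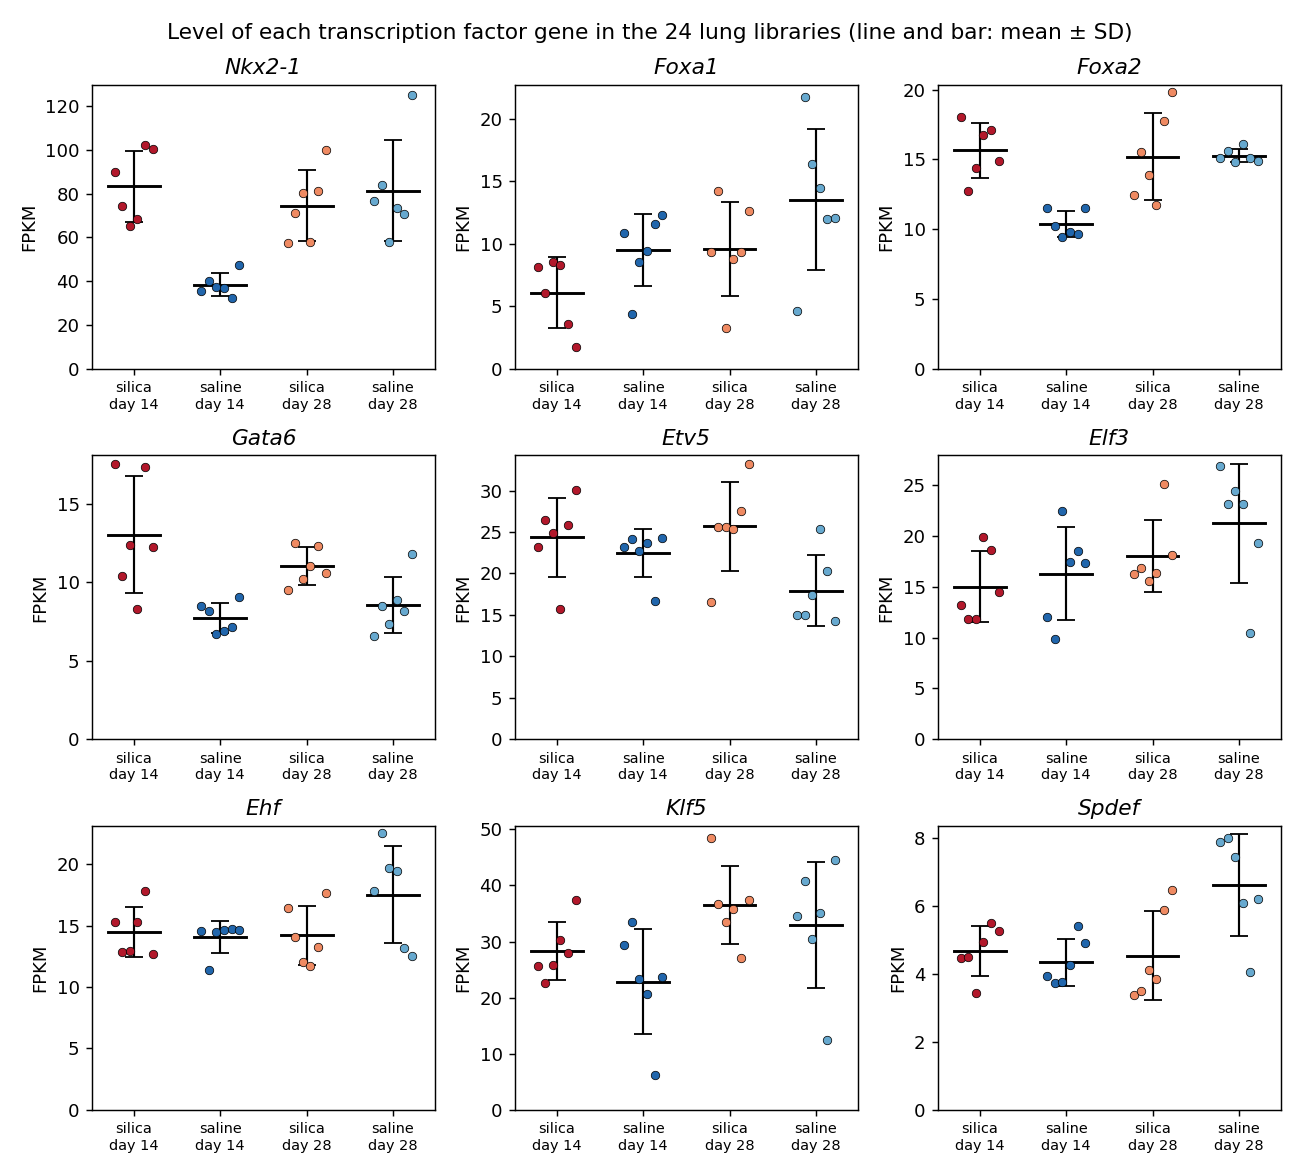
FPKM of the 9 genes (y axis, linear from 0) in the 24 libraries, 1 point a rat, with silica left of saline at each day (x axis); lines and bars are mean ± SD, n = 6. The 6 saline day 14 libraries sit at 32.1 to 47.6 FPKM for Nkx2-1, below all 18 libraries of the other groups.

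The day 14 comparison asked how silica lungs differed from saline lungs at the earlier time. Nkx2-1, Foxa2 and Gata6 were higher with silica, and the other 6 genes did not pass the threshold. Nkx2-1 (ENSRNOG00000008644) had a lowest, median and highest level of 65.1, 82.2 and 102 FPKM in silica lungs, against 32.1, 37.3 and 47.6 FPKM in saline lungs. The groups did not overlap: the lowest silica library exceeded the highest saline one. The means were 83.5 FPKM ± 16.2 in silica and 38.4 ± 5.23 in saline (SD, n = 6 each), a log2 change of 1.09 (SE 0.16) on the log2(FPKM + 1) scale.

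Foxa2 (ENSRNOG00000013133), the forkhead factor that restrains goblet cell differentiation in the mouse lung, ran at 12.7, 15.8 and 18.0 FPKM (lowest, median, highest) in silica lungs and at 9.46, 10.01 and 11.5 FPKM in saline lungs. Its groups did not overlap either. The mean was 15.6 ± 1.98 FPKM in silica and 10.4 ± 0.918 in saline, a log2 change of 0.55 (SE 0.10). Gata6 (ENSRNOG00000023433) ran at 8.31, 12.3 and 17.5 FPKM in silica lungs and at 6.73, 7.65 and 9.08 FPKM in saline lungs. The ranges overlapped through 1 silica library, replicate 4, and silica replicates 1 and 5 were the highest. Its log2 change was 0.65 (SE 0.14).

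In all, 3 of the 9 genes were called, all of them higher, where 4.37% of all genes tested were called in either direction and 2.70% were called higher. Groups did not overlap for 2 of the 9, against 5.00% of all genes. The median log2 change of the 9 was 0.10, against -0.0023 over all genes tested. These 3 calls held under each of the 13 alternative settings and without any 1 of the 12 libraries, with log2 changes of 1.03 to 1.16 for Nkx2-1, 0.51 to 0.60 for Foxa2 and 0.56 to 0.76 for Gata6 when 1 library was left out. Library measures are given beside these calls. The mean log2(FPKM + 1) of 15 pan-epithelial markers was 5.45 ± 0.17 in silica and 5.33 ± 0.12 in saline (exact permutation p = 0.221, two-sided). A list of 8 compact genes, which an earlier account had picked out of these libraries by their change, averaged 4.88 ± 0.26 in silica and 2.35 ± 0.23 in saline on the same scale, a difference that their choice fixed. Depth was 66.7 M reads ± 5.03 in silica and 74.7 M ± 8.32 in saline (exact permutation p = 0.0693). With the pan-epithelial level as a covariate the log2 change of Nkx2-1 was 1.05, and with a trend on gene length removed from each library it was 1.10. The part of depth and of the compact gene level was not tested.

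The other 6 genes differed little at day 14 or varied widely. Foxa1 (ENSRNOG00000009284) averaged 6.07 ± 2.84 FPKM in silica and 9.52 ± 2.87 in saline, a log2 change of -0.65 with an SE of 0.35. Klf5 (ENSRNOG00000008785) averaged 28.3 ± 5.13 in silica and 22.8 ± 9.35 in saline, a change of 0.43 (SE 0.30). Its saline group held the lowest Klf5 level of the 24 libraries, 6.24 FPKM in replicate 5. Heart muscle Myh6 was 143 FPKM in that library and 114 FPKM in silica day 28 replicate 1. The latter library had the highest Klf5 level of the 24, 48.5 FPKM. Without saline replicate 5 the change was 0.11. Etv5 (ENSRNOG00000001785), Elf3 (ENSRNOG00000006330), Ehf (ENSRNOG00000007484) and Spdef (ENSRNOG00000000491) changed by 0.10 (SE 0.16), -0.09 (SE 0.20), 0.03 (SE 0.13) and 0.09 (SE 0.15). Missing the threshold does not show that these levels were alike.

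**Figure D2:**
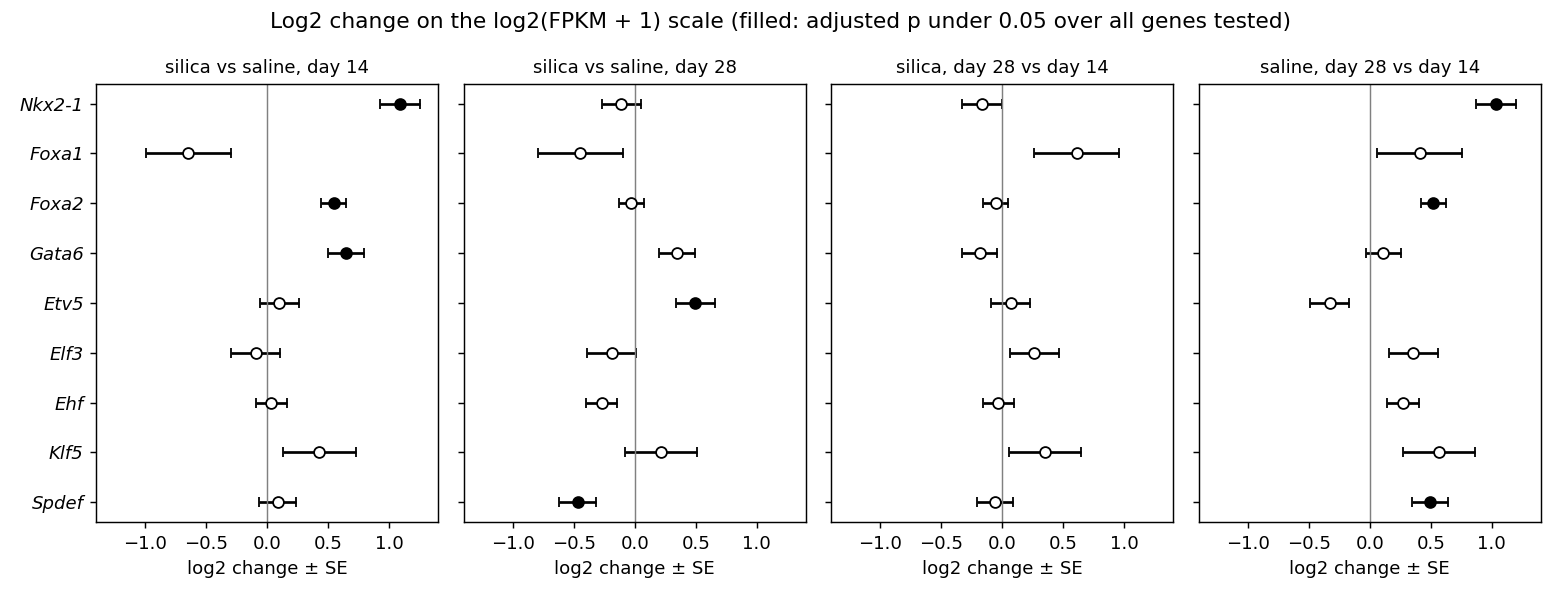
Log2 change of each gene (x axis, ± SE, on the log2(FPKM + 1) scale) in 4 comparisons, with filled points for an adjusted p under 0.05 over all 20856 genes. Nkx2-1 stands at 1.09 in silica against saline at day 14, at -0.11 at day 28, at -0.16 between the silica days and at 1.03 between the saline days.

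The day 28 comparison asked the same of later lungs, and other genes of the set were called there. Etv5 was higher with silica. It ran at 16.6, 25.6 and 33.3 FPKM (lowest, median, highest) in silica lungs and at 14.2, 16.2 and 25.4 FPKM in saline lungs. The ranges overlapped, with silica replicate 1 the lowest of its group and saline replicate 4 the highest of its own; without silica replicate 1, the library with stratified epithelial keratins, the log2 change was 0.61. The means were 25.7 ± 5.36 FPKM in silica and 17.9 ± 4.31 in saline, a log2 change of 0.50 (SE 0.16). From day 14 to day 28 Etv5 changed by -0.33 (SE 0.16) in saline and by 0.07 (SE 0.16) in silica, neither called. Spdef was lower with silica, at 3.39, 3.98 and 6.47 FPKM in silica lungs and 4.06, 6.82 and 8.01 FPKM in saline lungs, a log2 change of -0.47 (SE 0.15). Its ranges also overlapped.

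These were 2 of the 9 genes, 1 in each direction, where 13.8% of all genes were called; the groups of 0 of the 9 were separate, against 2.92% of all genes. Both calls lay close to the threshold. Etv5 lost its call without silica replicate 2, 3, 4, 5 or 6 or saline replicate 1, 2, 3 or 6, and Spdef without silica replicate 1, 2, 3 or 4 or saline replicate 1, 2, 3 or 6. Without the 3 saline libraries of high mitochondrial share the log2 change was 0.26 for Etv5 and -0.31 for Spdef, and neither was called. With the mitochondrial percent as a covariate it was 0.10 and -0.31, again without a call. The deviation of Etv5 from its group means also ran against the mitochondrial percent across the 24 libraries, with a Pearson r of -0.63 (Benjamini-Hochberg adjusted permutation p = 0.0063) and a Spearman rho of -0.54 (adjusted permutation p = 0.0612, 45 relations). Without the 2 libraries farthest in mitochondrial percent r was -0.61.

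Nkx2-1 averaged 74.6 ± 16.1 FPKM in silica and 81.4 ± 23.1 in saline at day 28, a log2 change of -0.11 (SE 0.16). Its highest level of the study, 125 FPKM, was in saline day 28 replicate 6, and without that library the change was 0.02. Foxa2 averaged 15.2 ± 3.13 in silica and 15.3 ± 0.492 in saline, a change of -0.03 (SE 0.10). Gata6 averaged 11.03 ± 1.19 in silica and 8.54 ± 1.79 in saline, a change of 0.35 (SE 0.14) in the direction of day 14 that was not called. The changes of Foxa1, Elf3, Ehf and Klf5 were -0.44 (SE 0.35), -0.19 (SE 0.20), -0.27 (SE 0.13) and 0.22 (SE 0.30). Klf5 had its highest level, 48.5 FPKM, in silica replicate 1, the library with stratified epithelial keratins, and 12.5 FPKM in saline replicate 5; leaving out that saline library gave a change of -0.03. The median log2 change of the 9 genes was -0.11, against -0.03 over all genes.

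For Nkx2-1 and Foxa2 the silica effects of the days differed, and the saline day 14 group was the one that stood apart. The silica effect at day 28 minus that at day 14 was -1.20 (SE 0.23) for Nkx2-1 and -0.57 (SE 0.15) for Foxa2, and these 2 of the 9 genes were called, where 9.93% of all genes were called in either direction and 4.91% were called lower. For Spdef it was -0.55 (SE 0.21), for Etv5 0.40 (SE 0.22) and for Gata6 -0.30 (SE 0.20), none of them called. Both calls were lost with the mitochondrial percent as a covariate (-1.09 for Nkx2-1 and -0.63 for Foxa2), with the pan-epithelial level as a covariate (-1.10 and -0.38) and without the 3 saline day 28 libraries of high mitochondrial share (-0.96 and -0.58). The remaining contrasts share the saline day 14 and the silica day 14 libraries with those above.

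Between the saline days, Nkx2-1 changed by 1.03 (SE 0.16) at day 28 against day 14, Foxa2 by 0.52 (SE 0.10) and Spdef by 0.49 (SE 0.15). These 3 of the 9 were called, all higher, where 25.2% of all genes were called in either direction and 14.1% were called higher. Of the 9, 2 had separate groups (Nkx2-1 and Foxa2), against 8.46% of all genes. The median change of the 9 was 0.41, against 0.04 over all genes. The lowest, median and highest Nkx2-1 levels were 58.1, 75.2 and 125 FPKM in saline at day 28 and 32.1, 37.3 and 47.6 in saline at day 14. Without saline day 28 replicate 5, which had the lowest Elf3 (10.5 FPKM) and Klf5 of its group, Elf3 (0.54), Ehf (0.35) and Klf5 (0.81) were called as well, 6 genes in all. Ehf was also called without saline day 28 replicate 6, Etv5 (-0.43) without replicate 4, and Spdef was not called without replicate 1 or 2. The mitochondrial percent also differed between the saline days (5.29 ± 2.14 at day 28 against 2.496 ± 0.652 at day 14, exact permutation p = 0.00433). The compact gene level was 3.32 ± 0.44 at day 28 and 2.35 ± 0.23 at day 14, given as a description since these libraries were among those the list was picked from. With the mitochondrial percent as a covariate 0 of the 9 genes were called, Nkx2-1 standing at 0.91.

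Between the silica days 0 of the 9 genes were called, with 0 at an unadjusted p under 0.05 as well, by limma on FPKM, and 0 were called by limma-voom on recovered reads. Over all genes 1 was called (0.00479%), and 8.81% had an unadjusted p under 0.05. The changes at day 28 against day 14 ran from -0.18 (SE 0.14) for Gata6 to 0.61 (SE 0.35) for Foxa1, with a median of -0.03.

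**Figure D3:**
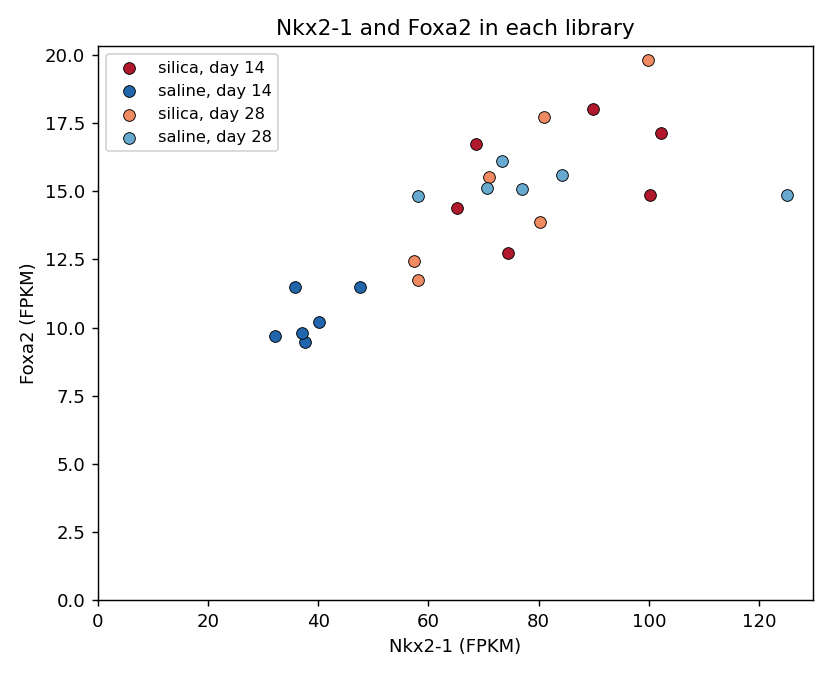
Foxa2 level (y axis, FPKM) against Nkx2-1 level (x axis, FPKM) in each of the 24 libraries, coloured by group. The 6 saline day 14 libraries form the low corner, at 32.1 to 47.6 FPKM for Nkx2-1 and 9.46 to 11.5 FPKM for Foxa2.

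The authors' deposited table holds its own comparisons of the groups. For silica against saline at day 14 the authors' deposited table gives a log2 fold change of 1.12 for Nkx2-1, 0.59 for Foxa2 and 0.75 for Gata6. At day 28 the authors' deposited table gives 0.56 for Etv5, 0.41 for Gata6 and -0.50 for Spdef. The authors' deposited table therefore has Gata6 past an FDR of 0.05 at day 28 and Spdef not, where the limma fit had the opposite. Between the silica days, where its fold changes run as day 14 over day 28, the authors' deposited table has 0 of the 9 genes past an FDR of 0.05.

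Rats of the same group also differed among themselves, and this spread is independent of the group means. Over the 36 pairs of the 9 genes, deviations from the group means correlated beyond the adjusted threshold for 1 pair, Elf3 and Spdef, with a Pearson r of 0.68 (adjusted permutation p = 0.0245) and a Spearman rho of 0.65 (adjusted permutation p = 0.0284, n = 24). Without the 2 libraries farthest in Elf3 r was 0.55. Over all genes tested, 4.25% had an absolute r of at least 0.6 with Elf3 and 2.26% with Spdef. With a trend on gene length removed from each library, 0 pairs passed. Nkx2-1 with Gata6 (r = 0.59, adjusted permutation p = 0.0851), Elf3 with Ehf (0.57, 0.0851) and Nkx2-1 with Foxa2 (0.52, 0.109) did not pass.

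Elf3, Ehf, Spdef and Foxa2 followed the epithelial marker level of their library. Their r with the pan-epithelial level, group means removed, was 0.74 for Elf3, 0.79 for Ehf, 0.66 for Spdef and 0.65 for Foxa2 (adjusted permutation p = 0.00225, 0.00225, 0.0114 and 0.0114 over 45 relations). The Spearman rho was 0.76, 0.70, 0.65 and 0.61 (adjusted permutation p = 0.00495, 0.0109, 0.0139 and 0.0478), and without the 2 farthest libraries r was 0.69, 0.77, 0.61 and 0.68. Of all single genes tested, 4.25%, 4.80%, 2.26% and 0.638% had an absolute r of at least 0.6 with Elf3, Ehf, Spdef and Foxa2. These shares are for single genes. They are no background for an r with a mean over 15 markers, which is a different measure. For Nkx2-1 the r with the pan-epithelial level was 0.20 (adjusted permutation p = 0.693), for Gata6 -0.01 and for Etv5 -0.01 (adjusted permutation p = 0.983 for both). Elf3 also ran with the percent of reads on genes under 1000 bases (r = 0.63, adjusted permutation p = 0.0126; rho = 0.74, adjusted permutation p = 0.00495; 0.56 without the 2 farthest). Spdef ran against the compact gene level (r = -0.58, adjusted permutation p = 0.0424; rho = -0.55, adjusted permutation p = 0.0612; -0.59 without the 2 farthest). The markers, the compact genes and the 9 factors were read in the same libraries and share their depth and RNA quality.

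**Figure D4:**
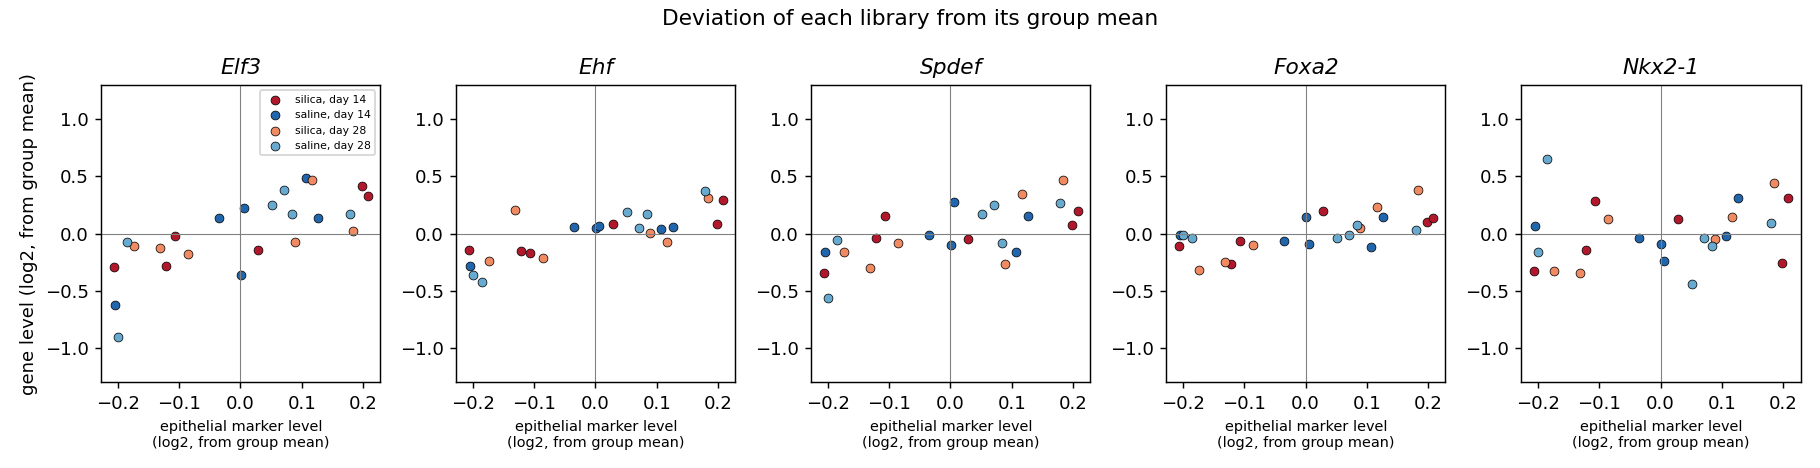
Deviation from the group mean of 5 genes (y axis, log2(FPKM + 1)) against that of the pan-epithelial marker level (x axis, same scale), 1 point a library. Elf3, Ehf, Spdef and Foxa2 rise with the marker level (r = 0.74, 0.79, 0.66 and 0.65), and Nkx2-1 has an r of 0.20.

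Other genes are given from lists named for a cell type, a pathway or a kind of factor. The name of a list does not mean that its genes are confined to the epithelium. Fgf10, for example, is on both the FGF list and the fibroblast list. Rose and fell mean higher and lower in silica than in saline of the same day. At day 14, where 4.37% of all genes were called in either direction, the counts were as follows. Of 15 pan-epithelial genes tested, 1 rose and 0 fell, and the list's median log2 change was 0.12. None of 14 type 2 cell, 12 type 1 cell or 13 airway secretory and goblet genes was called (medians 0.08, 0.18 and -0.61), and 1 of 14 ciliated cell genes fell, the axonemal gene Hydin (-0.96, limma adjusted p = 0.0209; median -0.49), named here for that count after its value was seen. Among 25 other epithelial transcription factors, 3 rose and 1 fell, with a median of 0.08. The homeobox gene Irx3 rose most (1.84, limma adjusted p = 5.29e-05), Irx5 (0.65, adjusted p = 0.0467), named after its value was seen, rose, and Nfib, a nuclear factor of lung maturation, fell (-0.36, limma adjusted p = 0.00153). Of 14 genes of FGF receptor signalling, the pathway that induces Etv5, 1 rose, the feedback inhibitor Spry1 (0.29, limma adjusted p = 0.0337), with a list median of 0.09; its call was lost without any 1 of 9 libraries. All 8 compact genes, chosen from these libraries for their change, were called higher.

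The same lists were counted at day 28. Of 14 ciliated cell genes 10 fell with silica (median -0.92), among them the ciliogenesis factors Rfx2 (-0.95, limma adjusted p = 0.0108) and Myb (-1.29, adjusted p = 0.0061) and the axonemal dyneins Dnah9 (-1.05, adjusted p = 0.0142) and Dnah11 (-1.01, adjusted p = 0.0147). Of 13 airway secretory and goblet genes 2 fell (median -0.24), the club cell secretoglobins Scgb1a1 (-1.23, limma adjusted p = 0.0291) and Scgb3a2 (-1.43, adjusted p = 0.0231). Of 15 pan-epithelial genes 2 fell (median -0.04), the tight junction gene Cldn3 (-0.51, limma adjusted p = 0.0304) and the splicing regulator Esrp2 (-0.60, adjusted p = 0.0286). Of 12 type 1 cell genes 3 rose (median 0.42): the water channel Aqp5 (0.45, limma adjusted p = 0.0434), Emp2 (0.43, adjusted p = 0.035) and Akap5 (0.86, adjusted p = 0.0183). None of 14 type 2 cell genes was called (median 0.22). The background was 8.47% of all genes called lower and 5.30% called higher. From day 14 to day 28 in saline, 9 of 14 ciliated genes were called higher (median 0.81). So were 3 of 13 secretory and 4 of 15 pan-epithelial genes. Lower there were 5 of 12 type 1 cell genes (median -0.36) and 1 of 14 type 2 cell genes. Over all genes 25.2% were called in that comparison in either direction, of which 14.1% of all genes were higher and the rest lower. In silica 0 genes of these lists were called between the days, with a ciliated median of 0.36.

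The list calls of silica against saline at day 28 were not made without the 3 saline libraries of high mitochondrial share. In that setting 0 of the ciliated, secretory, pan-epithelial, type 1 cell, FGF and other transcription factor genes were called. That setting also has fewer libraries. The log2 changes there were smaller and kept their sign in the genes looked up: -0.67 for Rfx2, -0.80 for Myb, -0.57 for Dnah9, -0.67 for Dnah11, -0.88 for Scgb1a1, -0.98 for Scgb3a2, -0.16 for Esrp2, 0.30 for Aqp5 and 0.53 for Akap5. With the mitochondrial percent as a covariate it was likewise 0. Leaving out 1 library gave 4 to 13 ciliated calls, 4 of them without saline replicate 2 and 5 without saline replicate 1 or silica replicate 3. For the type 1 cell list it gave 0 without saline replicate 1 or 2, 1 without silica replicate 2, 3, 4, 5 or 6, and 6 without silica replicate 1 or saline replicate 5. For the type 2 cell list it gave 3 without silica replicate 1 or saline replicate 4 and 4 without saline replicate 5. The calls ranged from 0 to 3 for the secretory, 0 to 4 for the pan-epithelial, 2 to 7 for the other transcription factor and 1 to 3 for the FGF list when 1 library was left out. In the full set, 3 of 25 other epithelial transcription factors rose and 3 fell (median -0.08). Irx3 (0.74, limma adjusted p = 0.0495) and Wwtr1, a Hippo pathway coactivator (0.82, adjusted p = 0.0133), rose and the epithelial zinc finger gene Ovol2 fell (-0.62, adjusted p = 0.00641). Named after their values were seen, Cebpa rose (2.32, limma adjusted p = 0.0226) and Elf5 fell (-0.56, adjusted p = 0.0418). Of 14 FGF genes, the inhibitors Spred1 (0.65, limma adjusted p = 0.0244) and Shisa2 (0.98, adjusted p = 0.0119) rose (median 0.15). The pan-epithelial level was 5.46 ± 0.15 in silica and 5.61 ± 0.16 in saline at day 28 (exact permutation p = 0.147, two-sided).

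The patterns most like those of the 9 genes were looked up by Pearson r of log2(FPKM + 1) over the 24 libraries, group differences included. Nkx2-1 was most like Stk11 (0.88), Ypel3 (0.88), Lzts2 (0.87), Agap3 (0.86) and Jund (0.86). Foxa2 was most like Spint2 (0.89), Lzts2 (0.86) and Nkx2-1 itself (0.85). Gata6 was most like Zcchc3, Rai2 and Spns2 (0.85, 0.80 and 0.80), Etv5 like Slc22a23, Agap1 and Usp8 (0.92, 0.89 and 0.87), and Elf3 like Pgam5, Cldn7 and Elof1 (0.82, 0.81 and 0.80). For Ehf they were Gorasp1, Tigd2 and Tmem30b (0.86, 0.86 and 0.85), for Klf5 Fam89b, Fam171a1 and Msrb3 (0.70, 0.70 and 0.69), for Spdef Ankrd37, Ttc22 and Slc30a3 (0.86, 0.84 and 0.84), and for Foxa1 Sbspon, Armc3 and Rgs22 (0.77, 0.75 and 0.74). RefSeq places the noncoding gene LOC102552092 over Nkx2-1 and LOC120101726 over Foxa2; whether strand was used in counting is not stated, so reads of these pairs may not be told apart.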

How the data were processed

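RNA was sequenced from the lungs of 24 rats, and the authors deposited FPKM for 32489 gene IDs in each library. Per the submitters' processing notes, the tools were HISAT2 2.1.0, HTSeq 0.9.1, FastQC 0.11.9 and cutadapt 4.0, and the builds Rnor_6.0 and rn6, in no stated order; the gene models and the use of strand are not given in the sources used here. For 3 comparisons the authors also deposited log2 fold changes, linear ratios (FC), p-values and FDR values, by a tool that is not named.

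Because the values are FPKM, no count test was the main one. Genes reaching 0.5 FPKM in 6 or more libraries, 20856 in all, were tested as log2(FPKM + 1), a pseudocount of 1, by limma-trend (limma 3.58.1, R 4.3.3, two-sided) in 1 fit of 4 group means. The threshold for a call was 0.05 on the p-value after Benjamini-Hochberg adjustment over all genes tested. A change on this scale understates that of low genes. Means are given ± SD over 6 libraries. Single values per library used exact permutation tests, and correlations 100000 permutations within groups. The rest was done in Python 3.11.15 with scipy 1.17.1, numpy 2.4.6, matplotlib 3.10.9 and pandas 2.3.3. Whole reads were recovered from the FPKM steps for 100% of 31521 genes with a nonzero value (tolerance 0.02 read). They gave the depth, 55.06 to 84.6 M (mega) reads a library, and 1 alternative test. The fit was tested on simulated data.

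The 9 genes and the gene lists were chosen with earlier results of these data known. All 9 are named; from each list the text names up to 4 genes with the smallest p at either day where they were called, and for each of the 9 the genes of highest Pearson r (5 for Nkx2-1, 3 for the others) among tested genes with a mean FPKM of at least 1 and an assigned symbol. Some genes that the lists count are not reported here by name. The labels call the libraries of a group biological replicates but do not say whether rats shared a cage or a day. Alternatives covered the pseudocount, the filter, the scaling, the test, covariates, gene length, the groups in the fit, and leaving out libraries.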

Additional observations from a re-analysis of the deposited data

Results flagged for a closer look

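Nkx2-1 and Foxa2 had silica effects that differed between the days by the interaction term of the limma fit, at -1.20 and -0.57 on the log2 scale (day 28 minus day 14), both past the adjusted threshold. Since the 9 genes were chosen with results known, this is a description. For Nkx2-1 the saline group moved between the days, with means of 81.4 FPKM at day 28 and 38.4 FPKM at day 14, and the silica group had 74.6 FPKM at day 28 and 83.5 FPKM at day 14. The percent of reads on genes under 1000 bases also differed between the saline days, at 18.4% at day 28 and 14.4% at day 14 (exact permutation p = 0.00216), and the mitochondrial percent was 5.29% at day 28 and 2.496% at day 14 (exact permutation p = 0.00433). With a trend on gene length removed from each library the interaction was -1.16 for Nkx2-1 and -0.63 for Foxa2 and kept both calls. Both calls were lost with the mitochondrial percent as a covariate (-1.09 and -0.63), with the pan-epithelial level as a covariate (-1.10 and -0.38) and without the 3 saline day 28 libraries of high mitochondrial share (-0.96 and -0.58).

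Single libraries lay far from the others of their group, by the size of the gap, for Etv5 (16.6 FPKM in saline day 14 replicate 5, the lowest), Elf3 (25.1 FPKM in silica day 28 replicate 5, the highest) and Ehf (11.4 FPKM in saline day 14 replicate 2, the lowest). There were 36 combinations of gene and group, and chance flags about 1 in 20. Saline day 14 replicate 5 is the library with Myh6 at 143 FPKM.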

How the results depend on the processing

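The 3 calls at day 14 and the absence of calls between the silica days held under all 13 alternatives and without any 1 library. At day 28 the 2 calls became 0 without a filter on low values, with the mitochondrial percent or the pan-epithelial level as a covariate, with only the groups compared in the fit and without the 3 saline libraries of high mitochondrial share, and 1 with quantile normalization, limma-voom or the length trend removed, and ranged from 0 to 2 when 1 library was left out. The 2 calls on the difference of silica effects became 0 with either covariate or without the 3 libraries, and were 2 to 3 with 1 library left out. The 3 calls between the saline days became 0 with the mitochondrial and 1 with the pan-epithelial covariate, 2 with the length trend removed or without the 3 libraries, and were 2 to 6 with 1 library left out. The 1 correlated pair became 0 with the length trend removed. The labels do not say what a replicate number marks. Same-numbered libraries had deviations that correlated at a mean of -0.0234 (range -0.296 to 0.127 over 36 pairs). That value does not settle whether same-numbered rats shared a cage or a day. With a replicate block the calls were 3 at day 14, 0 at day 28, 2 for the difference, 0 between the silica days and 3 between the saline days. The fit of only the groups compared gives no value for the difference of effects, which needs all 4 groups. The cause of these shifts was not tested.

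Signs changed only among changes that were not called. With the pan-epithelial covariate the day 14 change was -0.10 for Ehf and -0.043 for Spdef, the day 28 change was 0.078 for Foxa2 and 0.068 for Elf3, the difference of effects was 0.37 for Elf3 and 1.4e-05 for Ehf, and the saline day change was -0.14 for Elf3 and -0.051 for Ehf. With the mitochondrial covariate the day 28 change was 0.011 for Nkx2-1 and 0.013 for Elf3, the difference was -0.23 for Foxa1 and 0.080 for Elf3, and the saline day change was 0.10 for Etv5. Without the 3 libraries the day 28 change of Nkx2-1 was 0.12, and the difference was 0.066 for Elf3 and 0.14 for Klf5. Leaving out 1 library gave day 14 changes of -0.22 to 0.0051 for Elf3 and -0.024 to 0.068 for Ehf, day 28 changes of -0.20 to 0.021 for Nkx2-1, -0.11 to 0.036 for Foxa2 and -0.032 to 0.32 for Klf5, differences of -0.048 to 0.44 for Foxa1, -0.27 to 0.030 for Elf3 and -0.46 to 0.10 for Klf5, and silica day changes of -0.13 to 0.012 for Foxa2, -0.045 to 0.18 for Etv5, -0.093 to 0.028 for Ehf and -0.15 to 0.0013 for Spdef.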

Other observations

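The promoter windows of the 4 other matched genes differed in composition. Etv5 had a GC content of 73.3% with 36 CpG sites and 3 GC boxes, and Klf5 65.3% with 25 CpG sites, whereas Elf3 had 59.3% with 8 and Spdef 53.7% with 7, the median of all windows. Etv5 held 1 match to TGTTTAC, and Klf5 and Spdef held 1 match each to TCAAG.

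Outside the epithelium, 4 of 10 fibroblast genes tested were higher with silica at day 28 (median 0.48), where 5.30% of all genes were called higher, namely Col1a1 (0.42, limma adjusted p = 0.028), Col3a1 (0.63, adjusted p = 0.0085), Pdgfrb (0.85, adjusted p = 0.028) and Wnt2 (0.88, adjusted p = 0.0188). The 4 calls became 0 with the mitochondrial percent as a covariate or without the 3 saline libraries of high mitochondrial share, 1 with the pan-epithelial covariate or with only the groups compared in the fit, 1 without saline replicate 1 or 2 and 2 without silica replicate 3, 4 or 5. At day 14, where 4.37% of all genes were called in either direction, 1 of the 10 fibroblast genes was called. This was Col1a1, which was lower (-0.50, limma adjusted p = 0.0203), with a list median of -0.25. From day 14 to day 28, 6 of the 10 fibroblast genes were called lower among saline lungs (median -0.94). Over all genes 25.2% were called there in either direction, of which 14.1% of all genes were higher and the rest lower. Among silica lungs 0 of the 10 were called between the days (median -0.17). Mean Col1a1 went from 116 to 50.8 FPKM across the saline days and from 81.9 to 68.2 FPKM across the silica days. Of 9 endothelial genes tested, 1 was called at day 14, Sox18, which was higher with silica (0.75, limma adjusted p = 0.012). The median of that list was -0.02, with 4 of the 9 genes above 0, and 2.70% of all genes were called higher.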
